A study of Mus musculus with 36 samples.

Results

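The 10 genes described here encode the proteins of a simple epithelium: 4 keratins (*Krt7*, *Krt8*, *Krt18*, *Krt19*), 4 claudins (*Cldn3*, *Cldn4*, *Cldn6*, *Cldn7*), desmoplakin (*Dsp*) and EPCAM (*Epcam*). They were chosen by name, not by any measured value, though with earlier results of these data known. All 10 were found among the 50600 genes listed for the sorted Day 3 cells and among the 29267 genes listed for the other libraries. The series studied how mouse epiblast stem cells (EpiSCs), which are in the primed state of pluripotency, return to the naive state when BMP4 is given, a conversion named BiPNT. Bulk RNA-seq gave 11 libraries in 3 experiments, out of 36 samples in the series, and its single-cell, ATAC-seq and ChIP-seq samples are not used here. In the first experiment, Day 3 BiPNT cells had been sorted on the surface receptor c-Kit into *c-Kit*- cells (n = 2) and *c-Kit*+ cells (n = 2). In the second, EpiSCs (n = 3) were compared with Day 6 BV+SC+ cells (n = 2), and in the third, Day 3 cells with and without the DOT1L inhibitor SGC0946 (1 library each).

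The EpiSCs were grown in N2B27 with Activin A, bFGF and the tankyrase inhibitor XAV939. BV+SC+ cells came from an EpiSC line made from embryonic stem cells that carry the reporters *Blimp1*-mVenus (BV) and *Stella*-ECFP (SC). That line spent 3 days in iCD1 medium (vitamin C, bFGF, LiCl, LIF and CHIR99021) supplied with BMP4, the DOT1L inhibitor EPZ5676 and the EZH2 inhibitor EPZ6438. The medium described for the next 3 days, before cells positive for both reporters were sorted, was N2B27 with PD0325901, CHIR99021 and vitamin C. The study's second-stage medium also holds LIF, and the study tried GK15 medium and a JAK inhibitor at that stage. The labels of the BV+SC+ libraries carry different medium names, 2iJi for replicate 1 and GK15 for replicate 2. The described medium therefore may not hold for both, and medium and replicate cannot be told apart. The labels of the *c-Kit* libraries give seeding in N2B27 with XAV939 and daily changes of the first-stage medium up to Day 3, and name no strain or line. By the study's methods that medium is iCD1 with BMP4, the EZH2 inhibitor and a DOT1L inhibitor, either EPZ5676 or SGC0946. The labels of the SGC0946 libraries give the same culture text as those of the EpiSCs and name no line either. The study describes both as Day 3 BiPNT cells. By its methods both thus had iCD1 medium with BMP4 and the EZH2 inhibitor EPZ6438, and SGC0946 was the DOT1L inhibitor added or left out.

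Keratins are the intermediate filament proteins of epithelial cells. Each filament is built from pairs of a type II keratin, such as KRT7 or KRT8, and a type I keratin, such as KRT18 or KRT19, and KRT8 with KRT18 is the first pair made in the mouse embryo, in trophectoderm. Claudins seal or open tight junctions between neighbouring cells, desmoplakin ties keratin filaments to desmosomes, and EPCAM is an adhesion protein of epithelia and of pluripotent cells that binds claudins.

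Depth differed between the experiments. The summed expected counts were 1826460 and 1798944 in the *c-Kit*- libraries and 1726038 and 1841442 in the *c-Kit*+ libraries. They were 3070115, 2970222 and 2444211 in EpiSCs, and 14778809 and 18099059 in BV+SC+ cells. They were 4776143 with SGC0946 and 4577685 without it. Levels are given as TPM, the RSEM value scaled to 1000000 transcripts per library, which corrects for transcript length and so allows genes to be compared within a library. A count of 3 or fewer was taken as the floor of a library. Intervals and floors cover counting error only. Replicates are known only as separately labelled samples, so a p-value measures the spread between these samples, which may be technical. All libraries are bulk samples, in which fewer cells of a type and less RNA per cell cannot be told apart.

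The sorted Day 3 cells address which genes separate the *c-Kit*+ population from the rest of the culture. *Kit*, which encodes the sorted receptor, had a mean of 4.03 TPM in *c-Kit*- cells and 97.8 TPM in *c-Kit*+ cells. A gene was called where the unadjusted p-value of edgeR's quasi-likelihood test was under 0.05 and the fold was over 2. The Benjamini-Hochberg adjusted p-value over the 11018 genes tested is given beside it. By this rule 6 of the 10 members were higher in *c-Kit*- cells, against 13.6% of all genes tested, and 1 was higher in *c-Kit*+ cells, against 10.8%. The median log2 fold change, *c-Kit*+ over *c-Kit*-, was -1.80 over the members and 0.03 over all genes tested. *Krt7* and *Krt19* passed the filter on low counts only through the *c-Kit*- libraries, so nothing is read from their place in that count or median. A minimum of 10 counts per library leaves out both, and then 4 of 8 members were higher in *c-Kit*- cells, among 998 of 9385 genes, and 1 was higher in *c-Kit*+ cells, among 710. The median was then -1.16 over the members and 0.01 over all genes tested. Mitochondrial genes held 2.07% and 3.04% of the counts in the *c-Kit*- libraries and 3.71% and 4.09% in the *c-Kit*+ libraries, with no overlap, and the part of this difference in the results was not tested.

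The type II keratin *Krt8* (ENSMUSG00000049382, chromosome 15 of GRCm38, 101996698 to 102004482, minus strand) had 1892 and 1740.1 TPM in *c-Kit*- cells and 401 and 306 TPM in *c-Kit*+ cells. It ranked 49 and 60 among the genes listed in the *c-Kit*- libraries and 359 and 471 in the *c-Kit*+ libraries. Both *c-Kit*- libraries were high, the groups did not overlap, and the gene remained abundant in *c-Kit*+ cells. The means were 1816 ± 108 and 353 ± 67.4 TPM (SD, n = 2 each). The log2 fold change was -2.22, with a standard error (SE) of 0.118 and an adjusted p of 1.76e-06 by edgeR's test.

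Its type I partner *Krt18* (ENSMUSG00000023043, chromosome 15, 102028180 to 102032027, plus strand) had 1758 and 1606 TPM in *c-Kit*- cells and 317 and 243 TPM in *c-Kit*+ cells. The groups were as far apart as for *Krt8*, with a log2 fold change of -2.45 (SE 0.121, adjusted p by edgeR = 1.23e-06). *Krt19* (ENSMUSG00000020911, chromosome 11, 100140810 to 100148665, minus strand), a type I keratin that lacks most of the tail domain, had 102 and 52.3 TPM in *c-Kit*- cells and 9.08 and 6.61 TPM in *c-Kit*+ cells. The *c-Kit*- libraries were the high ones, and they differed from each other more than for the other keratins. The *c-Kit*+ values rested on 13 and 7 counts, and the ratio of counts per library total, *c-Kit*- over *c-Kit*+, was 10.4 (exact 95% interval 6.55 to 17.3).

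*Krt7* (ENSMUSG00000023039, chromosome 15, 101411043 to 101430313, plus strand), a type II keratin of ducts and trophoblast, had 51.7 and 36.3 TPM in *c-Kit*- cells and 0.29 and 0.47 TPM in *c-Kit*+ cells. The *c-Kit*- values rested on 194 and 138 counts and the *c-Kit*+ values on 1 and 2 counts, under the floor. Of the 4 keratins it was the one nearly confined to the *c-Kit*- libraries. The ratio of counts per library total, *c-Kit*- over *c-Kit*+, was 109 (exact 95% interval 36.9 to 531).

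The type II and type I keratins fell together in *c-Kit*+ cells, and their ratio moved far less than their total. Over the 23 type II and 26 type I keratins listed, the keratin total was 3886 and 3494 TPM in the *c-Kit*- libraries and 743 and 564 TPM in the *c-Kit*+ libraries. *Krt8* and *Krt18* together made up 93.9% and 95.8% of it in *c-Kit*- cells and 96.6% and 97.3% in *c-Kit*+ cells. The ratio of type II to type I TPM was 1.07 and 1.09 in *c-Kit*- cells and 1.20 and 1.21 in *c-Kit*+ cells. The ratio was higher in both *c-Kit*+ libraries than in either *c-Kit*- library.

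**Figure D1:**
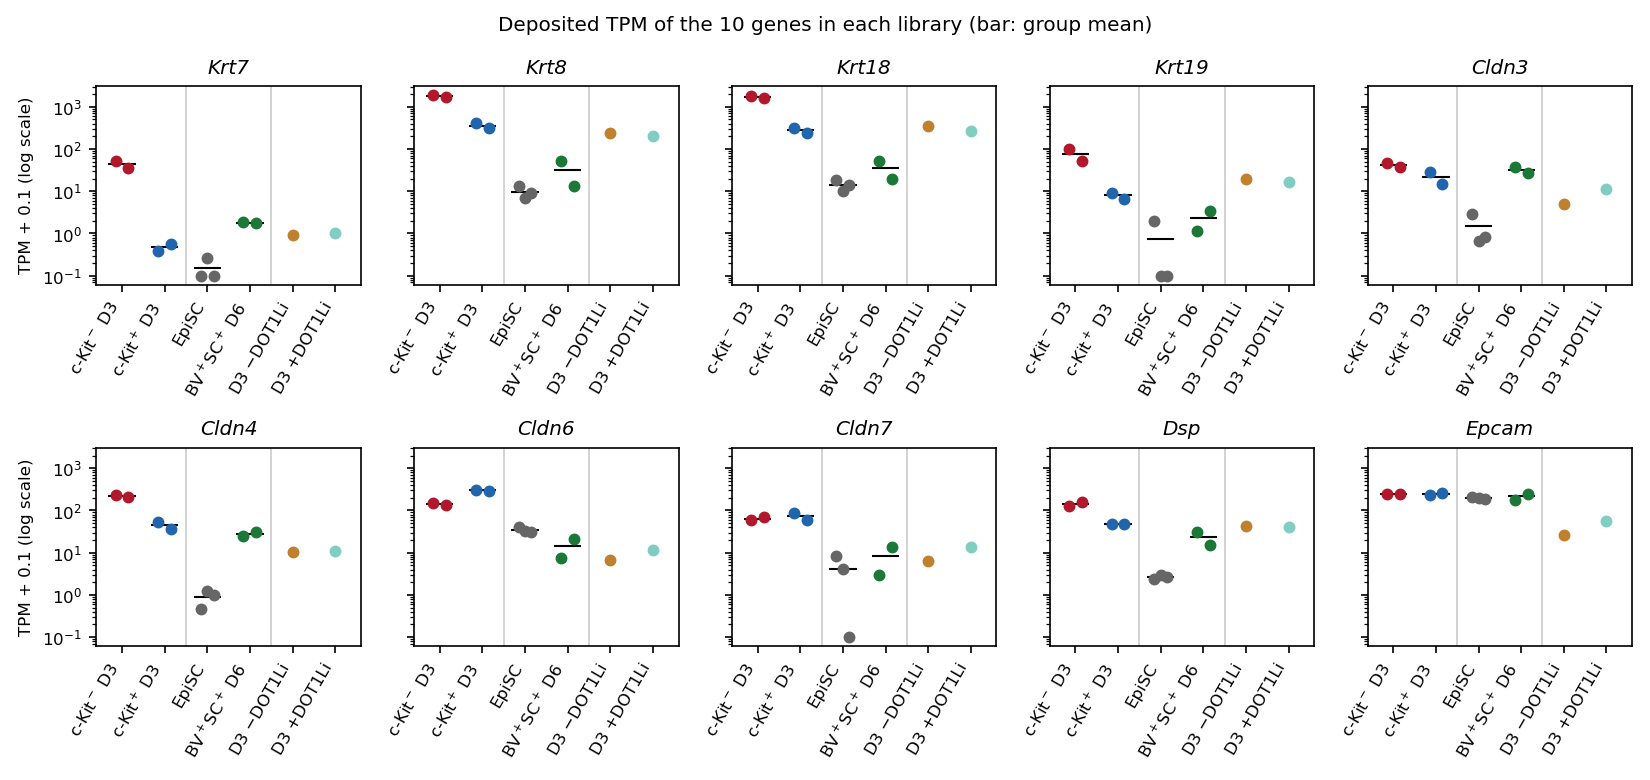
TPM + 0.1 of each of the 10 genes on a log axis, 1 panel per gene, with 1 point per library, grouped by cell population, and a line at the mean of each replicated group. The mean of each keratin is highest in the *c-Kit*- libraries and lowest in EpiSCs, whereas *Epcam* lies at a similar level in the sorted cells, EpiSCs and BV+SC+ cells.

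The claudins did not move as a block between the sorted populations. *Cldn4* (ENSMUSG00000047501, chromosome 5, 134945119 to 134946934, minus strand), which encodes a claudin of tight epithelia, had 229 and 208 TPM in *c-Kit*- cells and 52.3 and 36.1 TPM in *c-Kit*+ cells. It was high in both *c-Kit*- libraries with no overlap, and its log2 fold change was -2.17 (SE 0.171, adjusted p by edgeR = 1.67e-05). *Cldn6* (ENSMUSG00000023906, chromosome 17, 23679249 to 23682446, plus strand), a claudin of embryonic epithelia and pluripotent cells, had 153 and 138 TPM in *c-Kit*- cells and 300.3 and 295 TPM in *c-Kit*+ cells. It was the member called in the opposite direction, high in both *c-Kit*+ libraries, with a log2 fold change of 1.18 (SE 0.115, adjusted p by edgeR = 5.91e-05).

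*Cldn3* (ENSMUSG00000070473, chromosome 5, 134986214 to 134987472, plus strand), which encodes a sealing claudin, had 46.3 and 38.1 TPM in *c-Kit*- cells and 28.5 and 14.5 TPM in *c-Kit*+ cells. The *c-Kit*- libraries were higher without overlap, but the *c-Kit*+ libraries lay far apart. A log2 fold change of -0.84 was under the fold asked for (SE 0.344, adjusted p by edgeR = 0.0771). It became -1.0 without *c-Kit*- replicate 2 and -1.41 without *c-Kit*+ replicate 1, where it was called, and -0.46 without *c-Kit*+ replicate 2. *Cldn7* (ENSMUSG00000018569, chromosome 11, 69964779 to 69967885, plus strand), an EPCAM-binding claudin, had 59.1 and 68.6 TPM in *c-Kit*- cells and 86.2 and 58.3 TPM in *c-Kit*+ cells. The groups overlapped, and the ratio of counts, *c-Kit*+ over *c-Kit*-, was 1.16 (exact 95% interval 0.920 to 1.46).

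The claudin total over all claudin genes listed was 523 and 492 TPM in *c-Kit*- cells and 509 and 438 TPM in *c-Kit*+ cells, so the totals were close while the members within them differed. *Cldn4* was the most abundant claudin in both *c-Kit*- libraries, with 43.8% and 42.2% of the total, against 10.3% and 8.24% in *c-Kit*+ cells. *Cldn6* was the most abundant in both *c-Kit*+ libraries, with 59.1% and 67.5% of the total, against 29.3% and 27.9% in *c-Kit*- cells. The 4 member claudins together held 93.2% and 91.8% of the total in *c-Kit*- cells and 91.9% and 92.3% in *c-Kit*+ cells.

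*Dsp* (ENSMUSG00000054889, chromosome 13, 38151294 to 38198577, plus strand) had 127 and 162 TPM in *c-Kit*- cells and 48.6 and 47.0 TPM in *c-Kit*+ cells. The desmosome gene was thus high in the same libraries as the keratins that desmoplakin anchors, with a log2 fold change of -1.43 (SE 0.135, adjusted p by edgeR = 4.78e-05). *Epcam* (ENSMUSG00000045394, chromosome 17, 87635979 to 87651129, plus strand) had 243 and 244 TPM in *c-Kit*- cells and 230 and 257 TPM in *c-Kit*+ cells. The *c-Kit*+ libraries lay on either side of the *c-Kit*- libraries, and the means were 244 ± 0.77 and 243 ± 19.7 TPM (SD, n = 2 each). The ratio of counts, *c-Kit*+ over *c-Kit*-, was 1.07 with an exact 95% interval of 0.979 to 1.17, so a 2-fold difference lay outside the counting error.

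Trophoblast makes the same keratins, and the summed level of its markers was also higher in *c-Kit*- cells. Of 10 trophoblast markers, 9 were tested. Of these, edgeR's quasi-likelihood test called 6 higher in *c-Kit*- cells, against 13.6% of all genes tested, and 2 higher in *c-Kit*+ cells, against 10.8%. With 10 counts as the minimum per library these were 5 and 1 of 7. Their summed level was 3608 and 3253 TPM in the *c-Kit*- libraries and 1022 and 941 TPM in the *c-Kit*+ libraries. *Peg10* was the most abundant, at 2035 and 1988 TPM against 693 and 693 TPM, and none of the 10 was at 0 in any of these libraries. By mean TPM, *Plac1* went from 176 to 7.96 and *Gata2* from 411 to 41.9, while *Eomes* rose from 1.86 to 18.5. *Cdx2*, the other marker called higher in *c-Kit*+ cells, had 26.45 and 14.36 TPM in *c-Kit*- cells and 51.46 and 55.66 TPM in *c-Kit*+ cells. The part of trophoblast-like cells in the keratin values was not tested.

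The sums of 3 other marker lists were lower in *c-Kit*+ cells and that of mesoderm markers was higher. Surface ectoderm or amnion markers summed to 287 and 238 TPM in *c-Kit*- cells and 142 and 117 TPM in *c-Kit*+ cells. *Wnt6* had the highest mean TPM of that list, and *Krt14* was at 0 in 3 of the 4 libraries. *Krt5*, a keratin of stratified epithelia on that list, had a mean of 47.8 TPM in *c-Kit*- cells and 2.84 TPM in *c-Kit*+ cells, while *Igfbp3* of the same list was higher in both *c-Kit*+ libraries (59.0 and 53.5 TPM, against 19.4 and 10.9 TPM). Endoderm markers summed to 19.9 and 32.2 TPM in *c-Kit*- cells and 14.7 and 5.4 TPM in *c-Kit*+ cells, with *Afp*, *Apoa1* and *Ttr* at 0 in all 4 libraries. *Sox17* made up most of the *c-Kit*- sums, while *Gata6* was higher in the *c-Kit*+ libraries (2.62 and 4.26 TPM, against 0 and 0.67 TPM). Fibroblast markers summed to 161 and 136 TPM in *c-Kit*- cells and 55.9 and 44.4 TPM in *c-Kit*+ cells, with *Col1a1* the most abundant by mean TPM and *Dcn* at 0 in 3 of the 4 libraries. Mesoderm markers summed to 2.44 and 3.62 TPM in *c-Kit*- cells and 151 and 190.4 TPM in *c-Kit*+ cells, nearly all of it *T*, with *Hand2* and *Mesp1* at 0 in all 4 libraries. The part of these cell types in the results was not tested.

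EpiSCs and BV+SC+ cells address how germ cell-like cells that arise during BiPNT differ from primed cells. The labels do not say whether these EpiSC libraries come from the reporter line. The germ cell marker *Dppa3*, whose other name is *Stella*, was at 0 in the 3 EpiSC libraries and at a mean of 1182 TPM in BV+SC+ cells, while the primed marker *Dnmt3b* had means of 707 and 29.7 TPM. Of the 10 members, 7 passed the filter on low counts. By edgeR's quasi-likelihood test 5 were higher in BV+SC+ cells, against 17.2% of the 11792 genes tested, and 1 was higher in EpiSCs, against 17.8%. *Cldn3* and *Cldn4* passed the filter through the BV+SC+ libraries, so nothing is read from their place in that count. A minimum of 10 counts per library leaves out both. Then 3 of 5 members were higher in BV+SC+ cells, among 1169 of 10054 genes, and 1 was higher in EpiSCs, among 1648. *Krt7*, *Krt19* and *Cldn7* were not tested.

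*Krt8* had 13.2, 6.86 and 8.78 TPM in EpiSCs and 51.1 and 12.9 TPM in BV+SC+ cells. BV+SC+ replicate 1 stood alone, and replicate 2 lay within the range of the EpiSC libraries. The log2 fold change, BV+SC+ over EpiSCs, was 1.78 (SE 0.558, adjusted p by edgeR = 0.0263). It rested on replicate 1: without it the value was 0.51 and not called, without BV+SC+ replicate 2 it was 2.45, and without EpiSC replicate 2 it was 1.58 and not called.

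*Krt18* had 18.3, 10.3 and 13.7 TPM in EpiSCs and 50.6 and 18.9 TPM in BV+SC+ cells. The pattern was that of *Krt8*, with BV+SC+ replicate 1 high and replicate 2 just above the highest EpiSC library. The log2 fold change was 1.35 (SE 0.442, adjusted p by edgeR = 0.0309), which became 0.51 without BV+SC+ replicate 1 and 1.17 without EpiSC replicate 2, neither of them called. The ratio of *Krt8* to *Krt18* was 0.721, 0.668 and 0.642 in EpiSCs and 1.01 and 0.684 in BV+SC+ cells.

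*Krt7* and *Krt19* were under the floor in EpiSCs. *Krt7* had 0, 1 and 0 counts in EpiSCs and 1.75 and 1.67 TPM in BV+SC+ cells, where both libraries were low but above the floor. Its ratio of counts per library total was 23.7 with a wide exact 95% interval of 4.16 to 948. *Krt19* had 1, 0 and 0 counts in EpiSCs and 1.04 and 3.34 TPM in BV+SC+ cells, a ratio of 12.1 (exact 95% interval 2.07 to 489). That ratio rested mainly on BV+SC+ replicate 2, with 41 of the 47 BV+SC+ counts. The single count of *Krt19* in EpiSC replicate 1 gave 1.86 TPM, so the TPM values overlapped.

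*Cldn4* had 0.37, 1.14 and 0.92 TPM in EpiSCs, from 1, 3 and 2 counts, and 24.3 and 30.8 TPM in BV+SC+ cells. *Cldn3* had 2.81, 0.58 and 0.71 TPM in EpiSCs, from 5, 1 and 1 counts, and 37.4 and 27.1 TPM in BV+SC+ cells. For both genes the BV+SC+ libraries were high with no overlap and close to each other. The ratio of counts was 36.9 for *Cldn4* (exact 95% interval 16.9 to 101) and 23.4 for *Cldn3* (exact 95% interval 11.3 to 58.4). EpiSC replicate 1 holds 5 of the 7 EpiSC counts of *Cldn3*.

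*Cldn6* had 40.3, 33.4 and 30.8 TPM in EpiSCs and 7.45 and 21.2 TPM in BV+SC+ cells. All 3 EpiSC libraries were higher, and the BV+SC+ libraries lay far apart. The log2 fold change was -1.20 (SE 0.435, adjusted p by edgeR = 0.0457). It was called without EpiSC replicate 3, and without BV+SC+ replicate 2, where it was -2.18. It was not called without BV+SC+ replicate 1 (-0.63), EpiSC replicate 1 (-1.07) or EpiSC replicate 2 (-1.23), nor with an offset for GC content (-0.84).

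*Cldn7* had 8.16, 4.06 and 0 TPM in EpiSCs and 2.93 and 13.4 TPM in BV+SC+ cells, and the groups overlapped. The highest EpiSC value rested on 2 counts, because the effective length given for *Cldn7* in that library was 141 bases, against 884 bases in EpiSC replicate 2. The ratio of counts, BV+SC+ over EpiSCs, was 5.84 (exact 95% interval 2.90 to 13.7). It rested mainly on BV+SC+ replicate 2, which holds 156 of the 181 BV+SC+ counts. Within the claudin total, which was 82.0, 85.8 and 68.6 TPM in EpiSCs and 107 and 140.5 TPM in BV+SC+ cells, *Cldn6* held 49.1%, 39.0% and 44.8% in EpiSCs and 6.99% and 15.1% in BV+SC+ cells. The most abundant claudin was *Cldn3* in BV+SC+ replicate 1, with 35.1%, and *Cldn4* in replicate 2, with 21.9%. It was *Cldn6* in EpiSC replicate 1 and *Cldn12* in EpiSC replicates 2 and 3.

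**Figure D2:**
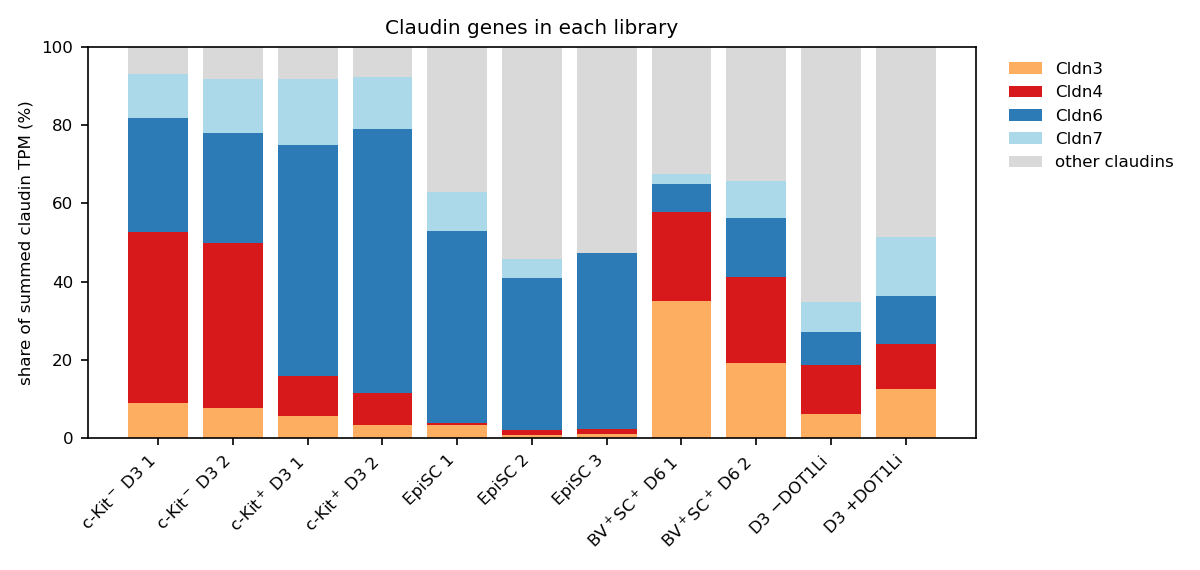
Percent of the claudin TPM of each library held by each member claudin and by all other claudins, 1 stacked bar per library on a linear axis. *Cldn4* holds the largest share in the *c-Kit*- libraries and *Cldn6* in the *c-Kit*+ libraries, and *Cldn3* and *Cldn4* hold more in BV+SC+ cells than in EpiSCs.

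*Dsp* had 2.35, 2.81 and 2.51 TPM in EpiSCs and 31.6 and 15.4 TPM in BV+SC+ cells. The BV+SC+ libraries differed from each other but both lay far above the EpiSC libraries. Its log2 fold change was 3.22 (SE 0.308, adjusted p by edgeR = 0.000111), and 2.61 without BV+SC+ replicate 1, still called. *Epcam* had 213, 202 and 192 TPM in EpiSCs and 181 and 252 TPM in BV+SC+ cells. The BV+SC+ libraries fell on either side of the EpiSC libraries, and the means were 202 ± 10.7 (SD, n = 3) and 217 ± 50.3 TPM (SD, n = 2). Its log2 fold change was 0.18 (SE 0.161, adjusted p by edgeR = 0.378), and -0.11 without BV+SC+ replicate 2.

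The summed level of trophoblast markers was far lower here than in the sorted cells, levels that are set side by side with no test. *Eomes* was an exception beside *c-Kit*- cells. It had 7.91, 5.58 and 5.04 TPM in EpiSCs and 7.6 and 5.02 TPM in BV+SC+ cells. The sorted cells had 1.92 and 1.8 TPM (*c-Kit*-) and 19.6 and 17.4 TPM (*c-Kit*+). The 10 trophoblast markers summed to 45.1, 40.3 and 27.6 TPM in EpiSCs and 120 and 52.7 TPM in BV+SC+ cells, highest in the library where *Krt8* and *Krt18* were highest. *Peg10* was the most abundant in BV+SC+ cells, at 79.1 and 25.6 TPM. *Cdx2* and *Elf5* were at 0 in all 3 EpiSC libraries, and none of the 10 was at 0 in BV+SC+ cells. By edgeR's quasi-likelihood test 2 of the 4 trophoblast markers tested were higher in BV+SC+ cells, against 17.2% of all genes tested, and 1 in EpiSCs, against 17.8%. With 10 counts as the minimum per library these were 1 and 0 of 3. Of the 2, *Gata2* had 1, 2 and 0 counts in EpiSCs, so nothing is read from its place. The marker higher in EpiSCs, *Tead3*, was not called without EpiSC replicate 1, EpiSC replicate 2 or BV+SC+ replicate 1 (-0.98, -0.94 and -0.51). The part of trophoblast-like cells in the keratin values of replicate 1 was not tested.

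**Figure D3:**
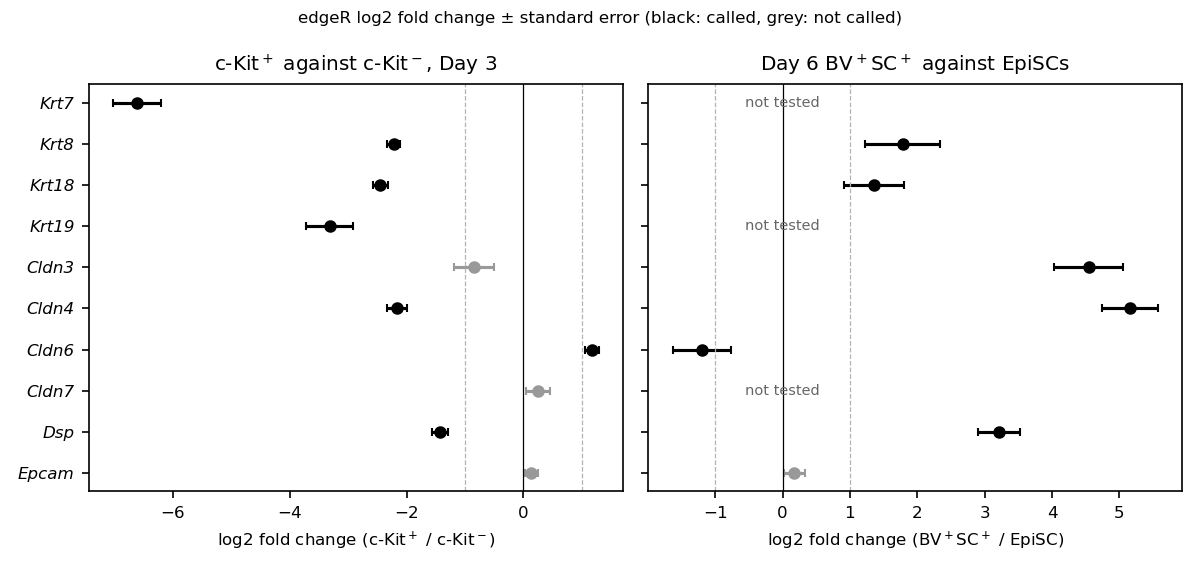
edgeR log2 fold change of each member (horizontal axis) between the sorted Day 3 populations (left) and between BV+SC+ cells and EpiSCs (right), with bars of 1 standard error, black where called and grey where not, and dashed lines at a 2-fold change. *Krt7*, *Krt8*, *Krt18*, *Krt19*, *Cldn4* and *Dsp* lie on the *c-Kit*- side and *Cldn6* on the *c-Kit*+ side, *Epcam* lies near 0 in both panels, at 0.14 and 0.18, and *Krt7* and *Krt19* (left) and *Cldn3* and *Cldn4* (right) passed the filter only through the group where they are high.

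The SGC0946 libraries address which transcripts follow DOT1L inhibition (DOT1Li) at Day 3. With 1 library each there was no check against replicates and no test. A gene counted as changed where the log2 ratio of TPM + 1, with over without SGC0946, was over 1 in size, among the 14038 genes that exceeded 1 TPM in either library. Of the 10 members, 9 passed that minimum. Of these, 3 were higher with SGC0946, against 6.33% of the genes compared, and 0 were lower, against 3.45%. The median log2 ratio was 0.07 over the members and 0.01 over all genes compared.

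The keratins were abundant in both libraries. *Krt8* had 205 TPM with SGC0946 and 237 TPM without it, and *Krt18* had 270.0 and 341 TPM. Both were lower with SGC0946 by less than the fold asked for. The ratio of counts, with over without, was 0.882 for *Krt8* (exact 95% interval 0.804 to 0.969) and 0.806 for *Krt18* (exact 95% interval 0.735 to 0.883), so the counting intervals left out 1. *Krt19* had 16.3 and 19.5 TPM, a ratio of counts of 0.764 (exact 95% interval 0.518 to 1.12). *Krt7* had 0.94 and 0.81 TPM, under the minimum, from 9 and 6 counts.

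*Epcam* had 55.9 TPM with SGC0946 and 26.2 TPM without it, a log2 ratio of 1.07. Its ratio of counts, 2.17 (exact 95% interval 1.75 to 2.72), was the most precise of the 3 that changed. *Cldn3* had 11.5 and 4.95 TPM, also a log2 ratio of 1.07, with a ratio of counts of 2.36 (exact 95% interval 1.20 to 4.90). *Cldn7* had 13.9 and 6.28 TPM, a log2 ratio of 1.04, from 24 and 16 counts. Its ratio of counts was 1.44 (exact 95% interval 0.733 to 2.90), which includes 1, and its effective lengths were 647 and 1016 bases, so the TPM ratio also holds a difference in length.

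*Cldn6* had 11.3 TPM with SGC0946 and 6.78 TPM without it, a ratio of counts of 1.70 (exact 95% interval 0.983 to 3.01). *Cldn4* had 10.8 and 10.2 TPM, a ratio of 1.08 (exact 95% interval 0.690 to 1.68). *Dsp* had 39.5 and 42.4 TPM, and its log2 ratio was -0.10. None of these 3 reached the fold asked for, and the intervals of the claudins were too wide to show a small difference at this depth. *Cldn12* was the most abundant claudin in both libraries, at 27.2 and 40.0 TPM.

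Trophoblast markers were again high beside the keratins. They summed to 2051 TPM with SGC0946 and 2552 TPM without it, led by *Peg10* at 1274 and 1538 TPM, and *Elf5* was at 0 without SGC0946. Of the 9 trophoblast markers over the minimum, 1 was higher with SGC0946, against 6.33% of the genes compared, and 1, *Cdx2*, was lower, against 3.45%. Fibroblast markers summed to 283 and 271 TPM, led by *Col1a1*. The part of these cell types in the member values was not tested.

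Sequence shared with other genes touched *Krt7*, *Krt8* and *Dsp*, by matches of at least 98% identity over at least 75 bases. The processed pseudogene *Krt8-ps* (chromosome 7, 23357125 to 23358069) matched 48.1% of a *Krt8* transcript, with a best identity of 98.6%. It was listed for the sorted cells, with 0 counts in all 4 libraries, and was not listed for the other libraries. *Gm10129* (38150477 to 38151792) overlaps the start of *Dsp* in the annotation and shared 465 bases with it, or 5.99% of a *Dsp* transcript. It had 17.2 and 19.8 counts in *c-Kit*- cells and 6.86 and 6.49 counts in *c-Kit*+ cells, 1, 0 and 0 counts in EpiSCs, 22.8 and 16.7 counts in BV+SC+ cells, and 5.59 and 8.26 counts with and without SGC0946. *Gm671* shared 78 bases with *Krt7* and *Gm36026* shared 102 bases with *Krt8*, and neither was listed. Adding the counts of the copies to each member changed no call.

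*Krt8* with *Krt18* and *Cldn3* with *Cldn4* lie side by side. *Krt8* and *Krt18* stand head to head, on opposite strands, with 23697 bases between them, into which the annotated lincRNA *Gm36026* (102004212 to 102009442) reaches from the *Krt8* side. *Krt7* lies 566384 bases from *Krt8* on the same chromosome, with 25 protein-coding genes between. *Cldn3* and *Cldn4* are also head to head, 39279 bases apart with no annotated gene between. *Krt8* and *Krt18* had log2 changes of the same sign in each of the 3 comparisons, and so had *Cldn3* and *Cldn4*. *Cldn4* was called in the sorted cells and *Cldn3* was not, both were high in BV+SC+ cells, and *Cldn3* but not *Cldn4* passed the fold with SGC0946. The differences within these pairs were not tested.

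The promoters of these head-to-head genes show how their upstream letters differ. RefSeq promoters on GRCm38.p6 were found for 9 of the 10 members, all but *Krt19*, with 2 entries for *Cldn7*. The 250 bases before each RefSeq start were searched on both strands for 6 motifs, and the same was done for all 32536 distinct promoters. GGGCGG, the box of SP and KLF factors, was in 7 members (*Krt7*, *Cldn3*, *Cldn4*, *Cldn6*, *Cldn7*, *Dsp*, *Epcam*) and in 33% of all promoters. GCCNNNGGC, the AP-2 motif, was in 3 members (*Krt7*, *Krt18*, *Dsp*) and in 13.8% of all promoters. AGATAA, which GATA factors bind, was in *Krt8* and in 9.97% of all promoters. TGACTCA, the AP-1 motif, was in *Cldn4* and in 4.45%, CATTCC, the TEAD motif, was in *Cldn7* and in 12.6%, and TATAAA was in 0 members and in 12.3%. A match describes letters and not binding.

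The sequences show the motif matches of the keratin pair and the claudin pair, 5′ to 3′ on the strand of each gene, with matched letters in capitals. For *Krt8* (chr15:102004483-102004592, minus strand) and *Krt18* (chr15:102027966-102028179, plus strand) they hold the stretch upstream of the annotated gene, 110 and 214 bases. For *Cldn3* (chr5:134985964-134986213, plus strand) and *Cldn4* (chr5:134946935-134947184, minus strand) they hold all 250 bases. Capitals mark AGATAA in *Krt8*, GCCNNNGGC in *Krt18*, CCGCCC, which is GGGCGG on the other strand, in *Cldn3*, and TGACTCA at 2 places and CCGCCC in *Cldn4*.
Krt8: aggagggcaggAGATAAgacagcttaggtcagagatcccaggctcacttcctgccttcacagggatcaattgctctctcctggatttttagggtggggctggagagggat
Krt18: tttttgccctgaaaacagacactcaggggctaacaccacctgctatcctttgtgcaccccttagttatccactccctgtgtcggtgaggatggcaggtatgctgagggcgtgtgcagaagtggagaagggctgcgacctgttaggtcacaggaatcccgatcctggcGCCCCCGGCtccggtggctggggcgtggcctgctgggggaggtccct
Cldn3: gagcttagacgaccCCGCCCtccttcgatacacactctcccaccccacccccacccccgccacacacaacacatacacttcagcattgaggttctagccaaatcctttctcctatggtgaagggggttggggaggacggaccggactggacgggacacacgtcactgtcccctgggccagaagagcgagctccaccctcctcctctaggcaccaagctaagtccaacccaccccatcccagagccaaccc
Cldn4: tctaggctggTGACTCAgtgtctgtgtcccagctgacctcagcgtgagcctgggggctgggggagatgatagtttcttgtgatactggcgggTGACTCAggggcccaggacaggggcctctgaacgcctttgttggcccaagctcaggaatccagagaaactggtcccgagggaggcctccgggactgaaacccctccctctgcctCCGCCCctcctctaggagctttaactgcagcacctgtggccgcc

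The GC content of the searched windows was 58.0% for *Krt8*, 60.4% for *Krt18*, 60.8% for *Cldn3* and 62.0% for *Cldn4*, against a median of 52.4% over all promoters. It was highest for *Dsp*, at 72.4%, and lowest for 1 of the *Cldn7* entries, at 51.2%.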

How the data were processed

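RNA-seq of the 11 libraries was used. The authors used Bowtie2 for alignment to mm10 or GRCm38 and RSEM for gene counts (1.3.1 in the labels of all but the sorted cells). The deposited values used here are RSEM expected counts, which are not normalised between libraries, and TPM. The deposited transcript lengths and effective lengths (other columns) were read to check TPM. Gene symbols and positions came from GENCODE M21.

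Expected counts were rounded and tested per experiment with edgeR 4.0.16 in R 4.3.3 (filterByExpr, TMM, quasi-likelihood), calling an unadjusted p under 0.05 with a fold over 2 and giving Benjamini-Hochberg adjusted p over all genes tested. For SGC0946, log2 ratios of TPM + 1 were taken over genes that exceeded 1 TPM in either library. Ratios of counts per library total carry exact conditional 95% intervals (Clopper-Pearson, SciPy 1.17.1). The code was tested on simulated data, and no pair of libraries was a duplicate. Near-identical copies were found with BLAST+ 2.17.0. Python 3.11.15, NumPy 2.4.6, pandas 2.3.3 and Matplotlib 3.10.9 were also used.

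Alternatives were adjusted p-values, DESeq2 1.42.0, RLE size factors, other filters, a loess offset for GC content, a replicate block, copies added, BV+SC+ counts thinned to the EpiSC depth, each replicate left out, and for SGC0946 a pseudocount of 0.1, other filters and CPM (counts scaled to 1000000 per library).

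The members and lists were chosen with earlier results of these data known. Besides the 10 members there were 16 lists: other keratins, other claudins, desmosome, tight junction scaffold, adherens junction, EPCAM partners, epithelial regulators, non-epithelial intermediate filaments, and 8 marker lists (trophoblast, endoderm, surface ectoderm or amnion, mesoderm, fibroblast, germ cell, naive and primed pluripotency). Named from each list were the gene with the highest mean TPM and up to 3 called genes with the largest fold and a mean TPM of at least 5. For likeness the 5 nearest genes were named. Neighbours, marker genes at 0, and *Cdx2*, *Esrp1* and *Tfap2a* in the sorted cells were named outside that rule, after their values were seen.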

Additional observations from a re-analysis of the deposited data

How the results depend on the processing

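In the sorted cells, member log2 fold changes kept direction and call in 88 of 88 values under alternatives other than leaving a replicate out, and in 38 of 40 with a replicate left out, *Cldn3* becoming called in the other 2. In EpiSCs and BV+SC+ cells these numbers were 67 of 68 and 27 of 35. The value lost among the 68 was *Cldn6* with the GC offset, -0.84. *Epcam* ranged from -0.11 to 0.42 with a replicate left out, negative without BV+SC+ replicate 2 alone, and the cause was not tested. The 7 calls lost with a replicate left out were those of *Krt8*, *Krt18* and *Cldn6*. With the GC offset *Epcam* was 0.48 in the sorted cells and 0.79 in BV+SC+ cells, under the fold in both. For SGC0946, 45 of 45 member values moved by less than their counting interval, though by CPM 2 members passed the fold in place of 3, without *Cldn7*. A lone library left in a group was assumed to vary like the other group.

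Requiring at least 10 counts in every library left fewer genes to test. The genes called in the sorted cells were then 710 higher in *c-Kit*+ and 998 higher in *c-Kit*- cells, of 9385. They held 1 and 4 of 8 members, and the member median was -1.16 in place of -1.80. In BV+SC+ cells 1169 of 10054 genes were then called higher, with 3 of 5 members. With no filter 3089 of 19598 genes and 8 of 10 members were higher in BV+SC+ cells. Members higher in EpiSCs numbered 0 with the GC offset, and 0 to 1 with a replicate left out, which are the *Cldn6* calls. That offset moved the median log2 fold change of all genes to 0.13 in this comparison. For SGC0946, 889 genes were higher and 484 lower of 14038. TPM over 1 in both libraries left 374 higher and 181 lower, whereas a pseudocount of 0.1 gave 1245 and 713. CPM gave 630 higher and 187 lower of 13751, with a member median of 0.21 in place of 0.07. The cause of these moves was not tested.

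Same-numbered *c-Kit* libraries share date-like digits in their deposited names, but no label calls them pairs, so a block was fitted as an alternative only. With a replicate block in the sorted cells, 1 member was higher in *c-Kit*+ and 6 in *c-Kit*- cells, among 1206 and 1487 genes. With replicates 1 and 2 of each group as blocks, 7 of 9 members tested were higher in BV+SC+ cells and 1 in EpiSCs, among 2281 and 2197 of 13076 genes. That fit leaves out EpiSC replicate 3, and 2 more members passed its filter through the BV+SC+ libraries, so nothing is read from the member count. Same-numbered libraries had deviations with a correlation of 0.06 across genes in the sorted cells and -0.02 in the other comparison, and genes are not independent replicates. With the GC offset added to the block, member counts were the same in both comparisons.

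Depth limited *Krt7*, *Krt19*, *Cldn3*, *Cldn4* and *Cldn7* in EpiSCs, and *Krt7* in *c-Kit*+ cells, where counts lay at or near the floor. Of the values of other named genes, 333 of 335 in the sorted cells and 334 of 344 in EpiSCs and BV+SC+ cells kept direction and call under alternatives other than leaving a replicate out, and 65 of 65 for SGC0946 moved by less than their counting interval.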

Other observations

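Beside the list counts below, 13.6% of all genes tested were called higher in *c-Kit*- cells and 10.8% higher in *c-Kit*+ cells. Between EpiSCs and BV+SC+ cells, 17.2% were called higher in BV+SC+ cells and 17.8% in EpiSCs. With SGC0946, 6.33% of the genes compared were higher and 3.45% were lower. The other keratins were low beside *Krt8* and *Krt18* in the sorted cells. *Krt8* and *Krt18* held 83.0%, 88.3% and 91.0% of the keratin total in EpiSCs and 90.9% and 62.2% in BV+SC+ cells. They held 91.2% with SGC0946 and 93.7% without it. Of the 45 other keratins, 1 was tested in the sorted cells, *Krt5*, with 130 and 65 counts in the *c-Kit*- libraries and 8 and 4 in the *c-Kit*+ libraries. None passed the filter in EpiSCs and BV+SC+ cells, where *Krt10* led with means of 1.88 and 0.985 TPM. For SGC0946, 3 were compared and 1 was higher with the inhibitor. *Krt15*, the most abundant, had 18.1 TPM with it and 11.5 TPM without it.

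Of 19 other claudins, 2 were tested in the sorted cells, and 1, on 3 and 5 *c-Kit*+ counts, was called higher in *c-Kit*- cells with all libraries but in none of the fits that left 1 library out. *Cldn12*, the most abundant, had means of 27.6 TPM in *c-Kit*- and 25.4 TPM in *c-Kit*+ cells. *Cldn5* was at 0 in the EpiSCs and at a mean of 20.8 TPM in BV+SC+ cells. *Cldn12* went from a mean of 35.0 TPM in EpiSCs to 15.5 TPM, with a log2 fold change of -1.12 (edgeR adjusted p = 0.00119), which was -0.94 without BV+SC+ replicate 2 and no longer called. For SGC0946, 2 of 6 were higher and 1 was lower.

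In the sorted cells the desmosome genes *Pkp2* and *Dsg2* were not called, with log2 fold changes of -0.28 and 0.38. The remaining 5 of 7 tested were called higher in *c-Kit*- cells by edgeR's test, as *Dsp* was, against 13.6% of all genes tested. The number was 4 to 6 when 1 library was left out. *Jup*, which encodes plakoglobin, had means of 222 and 67.5 TPM, *Pkp3* 114 and 10.1 TPM, and *Perp* 127 and 30.2 TPM. In BV+SC+ cells 1 of 6 was higher than in EpiSCs, *Dsg2*, with 8, 8 and 3 counts and a mean of 1.22 TPM in EpiSCs and 17.6 TPM in BV+SC+ cells. *Pkp2* was the most abundant there, at 61.6 and 53.6 TPM. None of 9 passed the fold for SGC0946, where *Jup* was the most abundant.

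Among tight junction scaffold genes in the sorted cells, 3 of 14 were higher in *c-Kit*- cells, against 13.6% of all genes tested. They were *Pard6b* (mean TPM 48.3 against 18.8), *Cgnl1* (85.2 against 31.5) and *Magi3* (24.8 against 10.9). The log2 fold change of *Magi3* was -1.01, and -0.98 without *c-Kit*- replicate 2, where it was not called. *F11r* was the most abundant, at means of 121 and 127 TPM. Between EpiSCs and BV+SC+ cells 4 of 15 were higher in each, against 17.8% of all genes tested for EpiSCs and 17.2% for BV+SC+ cells. *Tjp3* rose from a mean of 3.92 to 19.3 TPM and *F11r* from 32.5 to 70.6 TPM, and *Marveld2* fell from 17.1 to 5.61 TPM. For SGC0946 none of 15 passed the fold, and *Tjp1* was the most abundant.

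Of 9 adherens junction genes tested in the sorted cells, 0 were called by edgeR or by DESeq2, although 7 had an unadjusted p under 0.05, since none reached a 2-fold change. *Ctnnb1* was the most abundant, at means of 559 and 465 TPM. In EpiSCs and BV+SC+ cells 1 of 9 was higher in each. *Cdh3*, which encodes P-cadherin, had means of 6.92 and 63.4 TPM, and its log2 fold change of 3.28 became 2.24 without BV+SC+ replicate 2 and 3.87 without replicate 1. *Nectin1* had means of 28.2 and 4.71 TPM, and *Ctnnb1* 521 and 414 TPM. None of 9 passed the fold for SGC0946, where *Ctnnb1* had 556 TPM with the inhibitor and 539 TPM without it.

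Genes whose proteins bind, cleave or protect EPCAM were set beside *Epcam*. In the sorted cells 4 of 6 were higher in *c-Kit*- cells. *Cd9* had means of 406 and 108 TPM and *Prss8* 157 and 33.9 TPM. *Cd44* had means of 38.3 and 3.23 TPM, with a log2 fold change of -3.58 and of -4.48 without *c-Kit*+ replicate 1. *Spint2* was the only one of these 4 named genes not called, at 287 and 306 TPM. Each of EpiSCs and BV+SC+ cells had 2 of 6 higher, and 1 of 3 with 10 counts as the minimum per library. *Cd9* rose from a mean of 48.2 to 249 TPM and *St14* from 2.02 to 22.6 TPM, while *Spint1* fell from 47.9 to 6.15 TPM. None of 6 passed the fold for SGC0946, where *Spint2* had 115 TPM with the inhibitor and 85.9 TPM without it.

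Regulators of epithelial genes went both ways in the sorted cells, 3 of 13 higher in each population, and 2 (*c-Kit*+) and 3 (*c-Kit*-) of 11 with 10 counts as the minimum per library. *Grhl1*, *Elf3* and *Esrp2* were higher in *c-Kit*- cells, with mean TPM of 19.1, 87.5 and 127 against 3.78, 19.7 and 32.0. *Esrp1*, *Cdx2* and *Tfap2a* were higher in *c-Kit*+ cells, with log2 fold changes of 1.42, 1.53 and 1.40. *Esrp1* had 51.71 and 48.79 TPM in *c-Kit*- cells and 117.82 and 119.48 TPM in *c-Kit*+ cells. *Tfap2a* rested on 6 and 9 counts in *c-Kit*- cells. *Tfap2c* was the most abundant and not called, at 174 and 187 TPM. Of the 8 regulators tested in EpiSCs and BV+SC+ cells, *Grhl1*, *Grhl3*, *Elf3* and *Tfap2c* had at most 10 counts in any EpiSC library. They passed the filter only through the BV+SC+ libraries, so nothing is read from the number of regulators called. With 10 counts as the minimum per library, 2 of 3 were higher in BV+SC+ cells. *Tfap2c* rose from a mean of 0.75 to 191 TPM, *Elf3* from 2.12 to 77.0 TPM and *Grhl3* from 0.93 to 23.4 TPM. For SGC0946, 4 of 12 were higher and 2 were lower: *Esrp1* had 17.7 TPM with the inhibitor and 3.59 TPM without it, *Tfap2c* 105 and 35.5 TPM, *Klf5* 43.3 and 16.6 TPM, and *Cdx2* 53.0 and 108 TPM.

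Intermediate filament genes of other tissues were set beside the keratins. In the sorted cells 3 of 6 were higher in *c-Kit*+ and 1 in *c-Kit*- cells, and 1 and 0 of 3 with 10 counts as the minimum per library. *Vim*, which encodes vimentin, had means of 68.3 and 67.3 TPM, *Prph* 23.2 and 2.65 TPM, *Ina* 1.55 and 9.39 TPM and *Nefl* 7.91 and 40.8 TPM. In EpiSCs and BV+SC+ cells 4 of 7 were higher in EpiSCs, and 3 of 6 with that minimum. *Vim* had means of 406 and 173 TPM, and its log2 fold change of -1.10 was not called without EpiSC replicate 1 (-0.97) or BV+SC+ replicate 2 (-0.63). *Nes* had means of 158 and 12.0 TPM, *Nefl* 112 and 10.8 TPM and *Prph* 10.2 and 0.78 TPM. For SGC0946, 2 of 7 were higher, and *Vim* was the most abundant, at 1506 TPM with the inhibitor and 1589 TPM without it.

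Marker lists of pluripotent and germ cells hold genes that the sorts used: *Kit* in the sorted Day 3 cells, and *Prdm1* (*Blimp1*) and *Dppa3* (*Stella*) in BV+SC+ cells, whose place in the counts the sort fixed. Many others had few counts in 1 group and passed the filter through the group where they are high, so the lists are given by their sums, sort genes included. Germ cell markers summed to 190.2 and 174 TPM in *c-Kit*- and 495 and 421 TPM in *c-Kit*+ cells, naive markers to 262 and 239.9 against 542 and 462 TPM, and primed markers to 152 and 149 against 1501 and 1579 TPM. Most of the primed sums in *c-Kit*+ cells was *Pou5f1*, at 1226 and 1291 TPM. *Pou3f1* of that list was called the other way, at 33.9 and 33.0 TPM in *c-Kit*- and 4.61 and 1.01 TPM in *c-Kit*+ cells. *Dnmt3b* was not called, with a log2 fold change of 0.09. *Klf2*, the most abundant naive marker, was called higher in *c-Kit*+ cells, and fell under the fold without *c-Kit*+ replicate 1 (0.98 on the log2 scale). Germ cell markers summed to 8.08, 7.62 and 10.3 TPM in EpiSCs and 1796 and 1864 TPM in BV+SC+ cells, and naive markers to 196, 203 and 156 against 1021 and 989 TPM. Primed markers summed to 3311, 3188 and 3212 TPM in EpiSCs and 1876 and 2018 TPM in BV+SC+ cells. Members of that list went both ways. *Sox2* was called higher in BV+SC+ cells (log2 fold change 1.68), *Pou5f1* was not called (-0.41), and *Fgf5*, *Dnmt3b* and *Pou3f1* were lower (-5.26, -4.48 and -7.07). For SGC0946, 4 of 6 germ cell, 2 of 6 naive and 1 of 4 primed markers were higher with the inhibitor. *Pou5f1* led the primed list, at 549 TPM with it and 67.3 TPM without it.

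Of the remaining marker lists, 1 endoderm marker was tested in the sorted cells, *Sox17*, with a mean of 21.5 TPM in *c-Kit*- and, from 6 and 1 counts, 3.11 TPM in *c-Kit*+ cells. None was tested in EpiSCs and BV+SC+ cells. For SGC0946, 2 of 3 were lower with the inhibitor, led by *Gata6*, at 6.3 TPM with it and 17.8 TPM without it. Surface ectoderm or amnion markers were higher in *c-Kit*- cells for 2 of 5 and in *c-Kit*+ cells for 2 of 5, and for 1 of 2 each with 10 counts as the minimum per library. Of these, 1 was tested in EpiSCs and BV+SC+ cells, *Igfbp3*, with means of 67.9 and 22.2 TPM, and 1 of 4 was lower with SGC0946, *Tfap2a*. The mesoderm marker *T* was the 1 tested in the sorted cells, with means of 0.265 and 169 TPM. No mesoderm marker was tested in EpiSCs and BV+SC+ cells, and 1 of 2 was higher with SGC0946. Fibroblast markers were higher in *c-Kit*- cells for 3 of 3 (2 of 2 with that minimum), led by *Col1a1*. Higher in EpiSCs were 2 of 2, led by *Thy1*, and 0 of 1 with that minimum. None of 6 changed with SGC0946.

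With 1 library left out, the counts called moved by 1 gene or none in these lists and comparisons, apart from 3 lists in BV+SC+ cells. Genes with few counts in 1 group passed the filter only through the other, so nothing is read from their place in any of these counts. Other keratins higher there numbered 2 without any 1 of the EpiSC replicates or BV+SC+ replicate 1, since up to 3 then passed the filter. Epithelial regulators numbered 8 without either BV+SC+ replicate. Surface ectoderm or amnion markers numbered 2 without BV+SC+ replicate 2. Desmosome genes numbered 2 in all of these fits but the one without BV+SC+ replicate 2, and adherens junction genes numbered 2 without EpiSC replicate 2 or BV+SC+ replicate 1.

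Some neighbours of the members were described by position. *Tnfrsf12a*, near *Cldn6*, was called against it in the sorted cells, with an edgeR log2 fold change of -1.68 (adjusted p = 0.00121), and with it in BV+SC+ cells, at -1.76 (adjusted p = 0.00203). *Cldn9*, 137 bases from *Cldn6*, had means of 1.15 TPM in *c-Kit*- and 5.92 TPM in *c-Kit*+ cells. *Abhd11*, near *Cldn3*, rose by 1.40 in BV+SC+ cells (adjusted p = 0.000581), and *Slc2a4*, near *Cldn7*, had -2.66 (adjusted p = 0.00662). *Mettl27*, near *Cldn4*, had 1.10 in the sorted cells (adjusted p = 0.0555). It was 0.75 without *c-Kit*- replicate 2 or without *c-Kit*+ replicate 2, and not called in either.

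Likeness to a member was measured as the Euclidean distance over the 3 log2 changes, among 9734 genes with all 3 values and a mean TPM of at least 5. Nearest to *Krt8* were *Tmem191c* (0.18), *Smox* (0.23), *Frmpd1* (0.41), *Abcg1* (0.43) and *Spsb1* (0.45). Nearest to *Cldn6* were *Cx3cl1* (0.19), *Radil* (0.24), *Map2* (0.32), *Ccdc28b* (0.34) and *Lrrc61* (0.36). Nearest to *Epcam* were *Tmem268* (0.14), *Edrf1* (0.17), *Arid5a* (0.33), *Dact2* (0.34) and *Dynlt1c* (0.34).

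The sorted cells were quantified over another gene list than the other libraries, and the SGC0946 libraries have no replicates, so levels across them are a description without a test. The keratin total was 3886 and 3494 TPM in *c-Kit*- cells, 743 and 564 TPM in *c-Kit*+ cells, 521 TPM with SGC0946, 616 TPM without it, 112 and 51.0 TPM in BV+SC+ cells, and 37.9, 19.4 and 24.7 TPM in EpiSCs. *Epcam* was lowest in the SGC0946 experiment, at 55.9 and 26.2 TPM, and between 181 and 257 TPM in the other libraries. *Cdh1* was also lowest there, at 22.9 and 12.3 TPM, and between 67.5 and 333 TPM in the others. The same libraries had the highest *Vim* (1506 and 1589 TPM, against at most 442 TPM) and *Col1a1* (210 and 224 TPM, against at most 79.5 TPM). The part of other cell types in these levels was not tested.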
